A study of Mus musculus with 6 samples.

Results

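Transcripts of 10 receptors of the tumour necrosis factor (TNF) receptor superfamily were followed in BV2 cells, an immortalised mouse microglial line, given lipopolysaccharide (LPS, a glycolipid of the envelope of Gram-negative bacteria) or vehicle. The 10 genes were taken by symbol from the 55401 genes listed, and all 10 were found. They were chosen by name with earlier results of the same LPS against Vehicle comparison known, so their fold changes and adjusted p-values describe these libraries and are used to support nothing. RNA was poly(A)-selected and sequenced in 3 libraries of each group. Both groups were the same cell line, and no allele, transgene, dose or time of treatment is given in the labels. All results therefore come from 1 line, which is a model of microglia outside the brain. Whether the libraries of one group were grown as separate cultures is not given, and p-values cover no more than the spread among the 6 libraries, which may be technical.

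Ligands of the TNF superfamily act as trimers and bring their receptors together at the cell surface. Receptors that carry a death domain in the cytoplasm (Tnfrsf1a, Fas, Tnfrsf10b and Tnfrsf21) can recruit adaptors such as TRADD and FADD, and through them reach caspase-8 or NF-kB. Receptors without a death domain (Tnfrsf1b, Tnfrsf9, Tnfrsf11a, Tnfrsf12a and Ltbr) bind TRAF adaptors and signal mainly to NF-kB and MAP kinases, while Tnfrsf26 is an orphan without a known ligand. In microglia, LPS is sensed through Tlr4 and induces TNF, which these cells both release and bind.

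Short stretches upstream of annotated starts are shown for the members whose transcripts differed most between the groups, so that the letters can be read beside the values. They are RefSeq sequence of build GRCm38.p6, printed 5′ to 3′ on the strand of the gene. Capitals mark a match, on either strand, to the NF-kB consensus, to TGANTCA (the AP-1 motif) or to GGGCGG (the GC box). CCGCCC is the reverse complement of the GC box. Each stretch was picked to hold a match, so a motif missing from it may lie elsewhere upstream. GC boxes at 47 bases before the Fas start and 10 bases before the first Tnfrsf9 start, for instance, lie outside. The stretches are therefore not to be compared between genes. The Tnfrsf1b stretch, chr4:145246901-145247000 on the minus strand, runs from 130 to 31 bases before the start, and both GC boxes lie on the strand opposite to the gene.
Tnfrsf1b: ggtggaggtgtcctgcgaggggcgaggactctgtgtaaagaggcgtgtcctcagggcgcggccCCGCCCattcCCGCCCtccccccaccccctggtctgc
The next stretches precede the second of the annotated starts of Tnfrsf9, chr4:150927949-150927978 and chr4:150927969-150927998, both on the plus strand. They carry overlapping matches to the NF-kB consensus, at 43 and 42 bases before that start, and a match to TGANTCA at 15 bases. Both stretches also overlap an annotated UTR in GENCODE, whose transcript was not looked up.
Tnfrsf9 NF-kB match: agcagctGGGGATTTCCCaggaggccctgc
Tnfrsf9 AP-1 match: gaggccctgctcagtTGAGTCAcaggtcct
The Tnfrsf11a stretch, chr1:105780593-105780672 on the plus strand, holds the most distal of its 4 GC boxes.
Tnfrsf11a: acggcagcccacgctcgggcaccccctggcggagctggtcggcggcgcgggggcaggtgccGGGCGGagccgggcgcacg
The Fas stretch, chr19:34290419-34290518 on the plus strand, holds a TGANTCA match at 211 bases before the start.
Fas: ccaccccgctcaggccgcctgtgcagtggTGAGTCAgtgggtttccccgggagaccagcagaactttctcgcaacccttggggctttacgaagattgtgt

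Across the 250 bases before each start, 8 of the 10 members had at least 1 window, 9 windows in all, and Tnfrsf10b and Tnfrsf26 had none. The NF-kB consensus was found in 7.25% of 32851 windows of the same length from all genes and in 1 of the 9 member windows, the second of Tnfrsf9. TGANTCA was found in 6.75% of all windows and in 2 member windows, those of Fas and the second start of Tnfrsf9. GGGCGG was found in 32.7% of all windows and in 7 member windows, with 5 matches in Tnfrsf12a and none in Tnfrsf1a. GAGGAA, the core of the motif bound by the myeloid factor PU.1, was found in 23.3% of all windows and in those of Tnfrsf1b, Ltbr and Tnfrsf21. GC content of these 250 bases was highest for Tnfrsf11a at 73.6% and lowest for the first start of Tnfrsf9 at 43.2%, against a median of 52.4% over all windows. A match describes the letters only and is not a bound site.

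Each library totalled between 45969690 and 59023474 estimated counts, and low values were spaced by up to 3.78 counts, so a count is not a single read. Levels are given as CPM (counts relative to the library total, scaled between libraries by TMM) with SD over 3 libraries, and changes as log2 fold changes with their standard error (SE) from edgeR. All 10 microglia and macrophage markers were detected in every library, with a summed level of 2182 to 2469 CPM in Vehicle and 1844 to 2317 CPM in LPS, and 1 was called higher with LPS and 2 lower. Single markers moved more than the sum. Csf1r was at 237, 226 and 233 CPM in Vehicle and 86.2, 87.6 and 87.3 CPM in LPS. Adgre1 was at 134, 136 and 135 CPM in Vehicle and 241, 247 and 181 CPM in LPS. Aif1 and Cx3cr1 were low throughout, at 4.58 CPM or less. The T cell markers Cd3e, Cd3g and Cd8a were at 0 in every library, Cd4 and Cd3d reached 0.39 and 0.17 CPM, and all 5 T cell markers summed to at most 0.55 CPM in Vehicle and 0.12 CPM in LPS. The 5 neuron markers summed to 1.74 CPM in LPS 1 and to 4.60 to 10.6 CPM in the other libraries, the 5 astrocyte markers to 1.70 and 4.73 to 7.95 CPM. The microglial integrin Itgam was also low in LPS 1, at 42.9 CPM against 186 and 249 CPM in the other LPS libraries. Without LPS 1 the number of members called stayed at 5, while 16.6% of all tested genes were called, against 23.6% with all libraries. The change of Tnfrsf1b was then 2.59 ± 0.13 (SE). As the members were chosen with this contrast known, the count does not show whether LPS 1 matters. The summed levels of the 5 endothelial, 5 oligodendrocyte and 5 fibroblast markers were at most 4.02, 42.7 and 0.78 CPM in either group. Cnp alone held 31.2 to 36.4 CPM of the oligodendrocyte sum. In bulk RNA, a receptor carried by fewer cells and one with less RNA per cell cannot be told apart.

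Of the 10 members, 9 passed the filter on low counts, and Tnfrsf10b did not. Tnfrsf1b, Tnfrsf9, Tnfrsf26 and Fas were called higher with LPS and Tnfrsf11a lower, at an adjusted p under 0.05 over all tested genes. Tnfrsf1a, Tnfrsf12a, Tnfrsf21 and Ltbr were not called. Of all 16371 tested genes 23.6% were called, 12.7% higher and 10.9% lower. The same 4 members and 1 member had groups that did not overlap, against 40.8% of all genes, 20.8% higher and 20% lower. The median log2 fold change was 0.41 over the 9 tested members and -0.02 over all tested genes. Since the members were picked with this contrast in view, nothing is read from these counts.

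**Figure D1:**
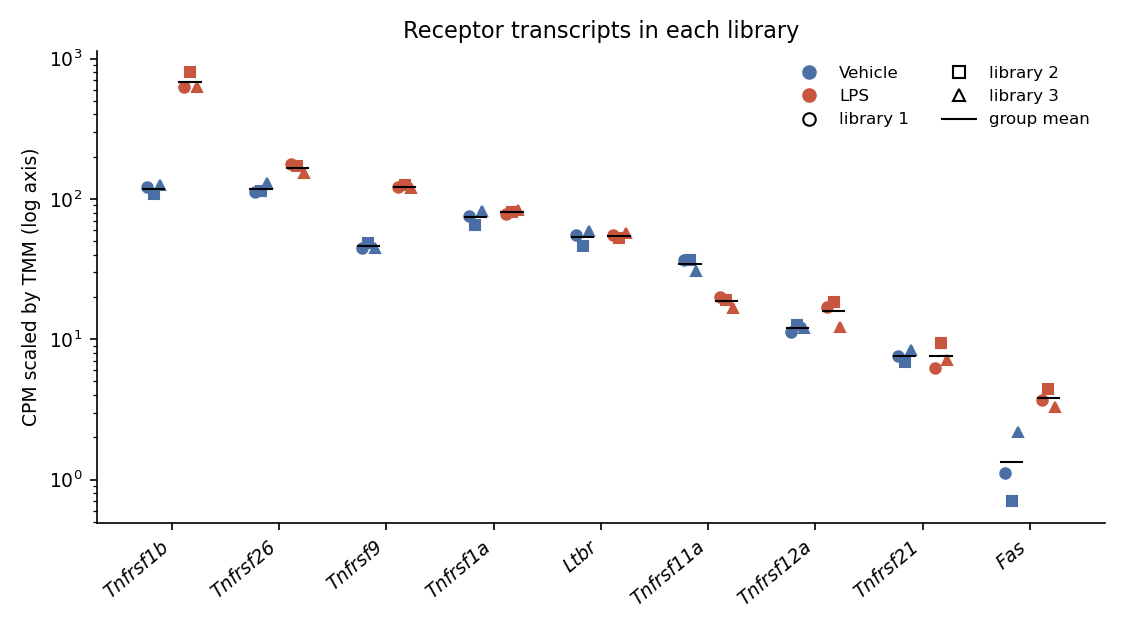
Level of the 9 tested receptors in each library, as CPM scaled by TMM on a log axis, with blue for Vehicle, red for LPS, a symbol for each library number and a black line for the group mean. Tnfrsf1b rises from 108 to 125 CPM in Vehicle to 626 to 800 CPM in LPS, while the points of Tnfrsf1a, Ltbr and Tnfrsf21 overlap between the groups.

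Tnfrsf1a encodes TNFR1, the death-domain receptor for TNF and lymphotoxin alpha. Its level was 75.2, 65.7 and 82.6 CPM in Vehicle 1 to 3 and 77.8, 80.2 and 83.0 CPM in LPS 1 to 3. The groups overlapped, and the log2 fold change of 0.11 ± 0.11 (SE) was not called (edgeR adjusted p = 0.503). Tnfrsf21 encodes DR6, a death-domain receptor studied in neurons and lymphocytes. It was measured at 7.64, 6.88 and 8.32 CPM in Vehicle and 6.21, 9.47 and 7.10 CPM in LPS, so the LPS libraries spanned the whole Vehicle range. Its fitted change was 0.00045 ± 0.20 (SE) on the log2 scale (edgeR adjusted p = 0.999), and its sign turned under most other settings.

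Fas, the receptor for Fas ligand and the best known inducer of apoptosis in the family, was a low transcript. It was measured at 1.11, 0.70 and 2.2 CPM in Vehicle, from 67, 34 and 104 estimated counts. In LPS it stood at 3.68, 4.41 and 3.30 CPM, from 184, 233 and 161 counts. Every LPS library lay above every Vehicle library, with Vehicle 3 the nearest. The log2 fold change was 1.54 ± 0.37 (SE), a 2.90-fold higher level (edgeR adjusted p = 0.0185). The call was lost without Vehicle 1 (adjusted p = 0.0760), without Vehicle 2 (0.0674) and without LPS 2 (0.0669), and without Vehicle 3 the change was 2.04 ± 0.36. Tnfrsf10b, the mouse receptor for TRAIL, had 0 counts in 5 libraries and 12 counts in LPS 1. A count of 0 allows up to 3 of the steps in which these values move, 11.3 counts or 0.19 to 0.24 CPM depending on the library, so Tnfrsf10b was not detectable at this depth in 5 libraries. No fold is given for it.

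Tnfrsf1b encodes TNFR2, the TRAF-binding receptor for TNF, which in the brain is found largely on microglia. Its level was 121, 108 and 125 CPM in Vehicle and 626, 800 and 631 CPM in LPS. Means were 118 ± 8.93 and 686 ± 99.4 CPM (SD, n = 3 each), and no library of either group came near the other group. The log2 fold change was 2.54 ± 0.12 (SE), or 5.82-fold (edgeR adjusted p = 8.18e-06). LPS 2 was the highest library, and without it the change was 2.42 ± 0.10. With each of the other libraries left out in turn it was 2.48 to 2.59.

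Tnfrsf9 encodes CD137, a costimulatory receptor best known on activated T cells and also found on myeloid cells. Its level was 44.4, 48.5 and 45.0 CPM in Vehicle and 121, 125 and 120 CPM in LPS. Libraries within a group were close, with means of 46.0 ± 2.24 and 122 ± 2.75 CPM (SD, n = 3 each). The log2 fold change was 1.41 ± 0.09 (SE), 2.66-fold (edgeR adjusted p = 2.76e-05), with the 3 LPS libraries well above the 3 Vehicle libraries.

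Tnfrsf11a encodes RANK, the receptor for RANK ligand, which drives osteoclast formation from myeloid precursors. Its level was 36.4, 36.5 and 30.5 CPM in Vehicle and 20.1, 19.2 and 16.7 CPM in LPS. It was the single member called lower, with every LPS library below every Vehicle library. Means were 34.5 ± 3.43 and 18.7 ± 1.76 CPM (SD, n = 3 each), a log2 fold change of -0.89 ± 0.13 (SE; edgeR adjusted p = 0.00209). Expressed as a ratio, the Vehicle level was 1.85-fold that of LPS.

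Tnfrsf12a encodes Fn14, the receptor for TWEAK (the product of Tnfsf12). It was measured at 11.3, 12.6 and 12.0 CPM in Vehicle and 16.9, 18.5 and 12.2 CPM in LPS. LPS 3 lay within the Vehicle range and the other LPS libraries above it. The change of 0.41 ± 0.18 (SE) was not called (edgeR adjusted p = 0.143), and without LPS 3 it was 0.56 ± 0.14 and was called (edgeR adjusted p = 0.0203). Ltbr, the lymphotoxin beta receptor, which also binds the product of Tnfsf14, was at 55.6, 46.0 and 59.2 CPM in Vehicle and 54.9, 52.3 and 57.4 CPM in LPS. The LPS libraries lay within the Vehicle range, and the log2 fold change was 0.03 ± 0.12 (SE; edgeR adjusted p = 0.867).

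Tnfrsf26, the orphan receptor, had the highest mean level per length among the members in Vehicle, with a range that overlapped that of Tnfrsf1a. Its level was 113, 113 and 129 CPM in Vehicle and 177, 172 and 152 CPM in LPS, with no overlap. Means were 119 ± 9.46 and 167 ± 13.2 CPM (SD, n = 3 each), and the log2 fold change was 0.50 ± 0.10 (SE), 1.41-fold (edgeR adjusted p = 0.00794). Tnfrsf26 stands next to Tnfrsf22 and Tnfrsf23, which encode decoy receptors for TRAIL. No 50-base stretch of its longest transcript occurred in transcripts of another gene, with matches on either strand counted. Of such stretches of Tnfrsf22 28.1% did, and of those of Tnfrsf23 23.4%, in part in each other. The split of reads between the latter pair is therefore uncertain. Tnfrsf26 also shared 107 exon bases (3.33%) with E230032D23Rik on the opposite strand. As strand use is not stated, reads from those bases cannot be assigned to either gene.

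**Figure D2:**
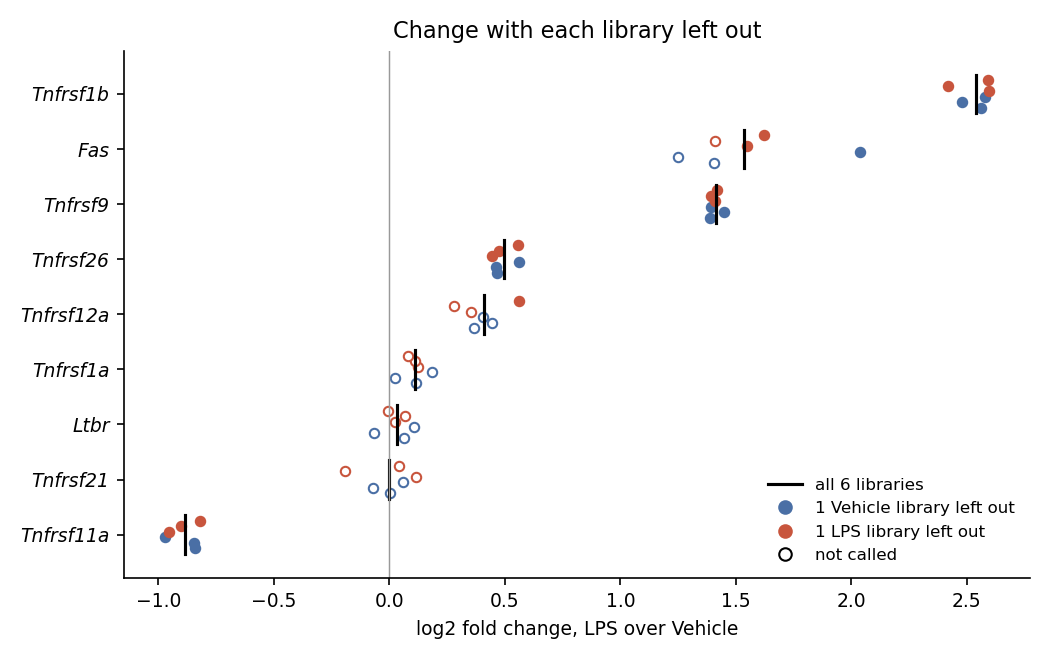
Log2 fold change of the 9 tested members with all 6 libraries (black line) and with each library left out in turn (blue, a Vehicle library; red, an LPS library; open, not called). Tnfrsf1b, Tnfrsf9, Tnfrsf26 and Tnfrsf11a are called in every set, and Fas spans 1.25 to 2.04 with 3 open points.

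Levels of different genes are compared per length, as TPM (counts over the length of the longest annotated transcript, relative to the library sum) within a group. In Vehicle the order was Tnfrsf26 at 89.9 ± 7.04, Tnfrsf1a at 81.4 ± 8.82 and Tnfrsf1b at 72.6 ± 5.02 TPM (SD, n = 3), and neighbours in this order overlapped. Ltbr at 59.9 and Tnfrsf9 at 51.2 TPM followed and also overlapped with each other. Tnfrsf12a (28.7 TPM), Tnfrsf11a (16.2 TPM), Tnfrsf21 (4.94 TPM) and Fas (1.93 TPM) were each apart from the next. In LPS, Tnfrsf1b came first at 375 TPM, then Tnfrsf9 at 121 and Tnfrsf26 at 113 TPM. Tnfrsf1a (78.3 TPM), Ltbr (54.7 TPM), Tnfrsf12a (33.5 TPM) and Tnfrsf11a (7.76 TPM) came below, and the ranges of Fas (4.88 TPM) and Tnfrsf21 (4.37 TPM) overlapped.

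The make-up of the receptor transcripts is given as shares of the summed TPM of 28 listed receptors, the 10 members and 18 others. The members held 81.4% ± 0.24 of it in Vehicle and 84.9% ± 0.38 in LPS (SD, n = 3). Tnfrsf1b held 15.0%, 14.1% and 14.5% in Vehicle and 38.2%, 43.0% and 39.1% in LPS. The shares of Tnfrsf26 (18.0% to 12.1%), Tnfrsf1a (16.2% to 8.39%), Ltbr (11.9% to 5.87%) and Tnfrsf11a (3.25% to 0.83%) were lower in LPS. Shares add to a fixed sum, and the levels of Tnfrsf1a and Ltbr themselves were not called changed while that of Tnfrsf26 was called higher. Tnfrsf9 held 10.3% in Vehicle and 13.0% in LPS.

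**Figure D3:**
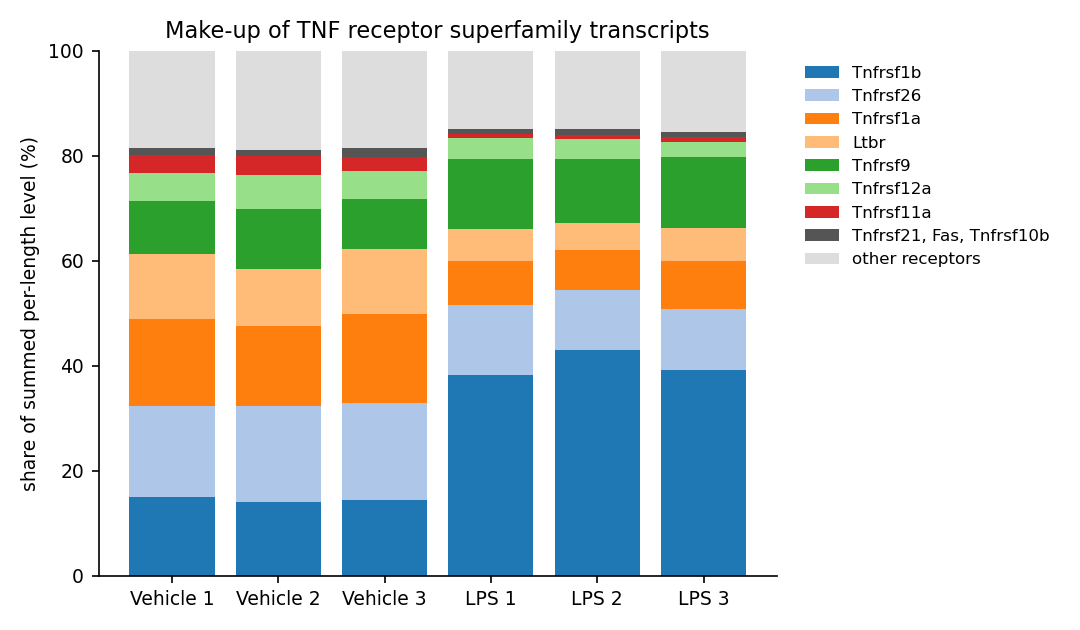
Share of each receptor in the summed per-length level of the 28 listed receptors, as stacked bars in percent for each library. Tnfrsf1b takes 14.1% to 15.0% in the Vehicle bars and 38.2% to 43.0% in the LPS bars.

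Ratios within a library do not depend on the scaling between libraries. The ratio of Tnfrsf1b to Tnfrsf1a, the pair of TNF receptors, was 0.91, 0.93 and 0.85 in Vehicle and 4.54, 5.63 and 4.29 in LPS. Tnfrsf1b thus stood a little below Tnfrsf1a in each Vehicle library and over 4-fold above it in each LPS library. The Vehicle difference is too small to order these genes, as lengths are those of the longest annotated transcripts. Tnfrsf1a and Ltbr, which lie close together in the genome with Scnn1a between them, kept a ratio of 1.36 ± 0.04 in Vehicle and 1.43 ± 0.06 in LPS (SD, n = 3), and the libraries of the groups overlapped. The ratio of Tnfrsf9 to Tnfrsf11a was 3.19 ± 0.31 in Vehicle and 15.7 ± 1.42 in LPS. Tnfrsf26 over Tnfrsf22 was 6.80, 6.42 and 6.43 in Vehicle and 10.1, 9.74 and 6.68 in LPS, so LPS 3 lay within the Vehicle range.

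Of the 18 other receptors listed, 9 passed the filter, and 4 were called higher and 0 lower. Among all tested genes 23.6% were called, 12.7% higher and 10.9% lower. The median log2 fold change of the tested other receptors was 0.44, against -0.02 over all tested genes. This list too was drawn up with earlier results of these data known, so nothing is read from its counts or median. Cd40, a costimulatory receptor on antigen-presenting cells, was at 11.7, 8.44 and 10.3 CPM in Vehicle and 43.8, 59.7 and 37.2 CPM in LPS, a log2 fold change of 2.21 ± 0.21 (SE; edgeR adjusted p = 0.000238). Tnfrsf13b, which encodes TACI, a receptor for BAFF and APRIL, went from 24.3 ± 0.82 to 48.9 ± 4.80 CPM (SD, n = 3), a change of 1.01 ± 0.11 (SE). Tnfrsf8, which encodes CD30 and lies beside Tnfrsf1b, was at 0.94, 0.66 and 1.03 CPM in Vehicle and 1.90, 3.26 and 4.08 CPM in LPS. Its change of 1.80 ± 0.40 (SE; edgeR adjusted p = 0.0127) was not called without Vehicle 2 (adjusted p = 0.0559). Tnfrsf23 was called at 0.44 ± 0.10 (SE; edgeR adjusted p = 0.0150) but not without Vehicle 1 (0.0679) or Vehicle 2 (0.0687), and Tnfrsf22 was not called (0.10 ± 0.15). Without Vehicle 2 only 2 of these receptors, rather than 4, were called. Relt (-0.09 ± 0.14), Tnfrsf4 (0.79 ± 0.52), Tnfrsf14 (0.23 ± 0.40) and Tnfrsf18 (-0.09 ± 0.62) were not called either. Reads of Tnfrsf18 are uncertain, as 27.2% of its exon bases lie opposite Gm16008. Tnfrsf17, Ngfr and Edar, named after their values were seen, were at 0 in every library.

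**Figure D4:**
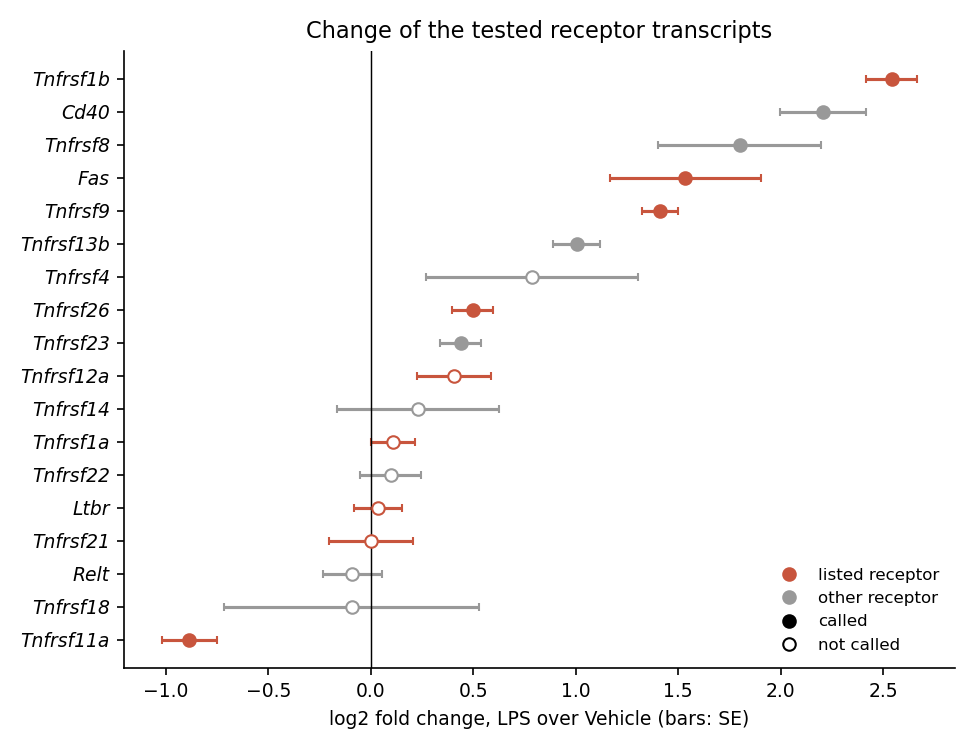
Log2 fold change, LPS over Vehicle, of the 18 tested receptors with SE bars, in red for the 9 members and grey for 9 other receptors, filled where called. Tnfrsf1b (2.54) and Cd40 (2.21) lie farthest to the right and Tnfrsf11a (-0.89) farthest to the left.

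Ligands of the members were also measured, and of the 9 listed 7 were tested and 2 were not. Of the 7 tested, 5 were called higher, 0 lower and 2 were not called (median log2 fold change 1.59). Ltb, among those called, passed the filter only with its LPS libraries, as Vehicle 1 fell below the cutoff, so its call is no support. Over all tested genes 12.7% were called higher and 10.9% lower, with a median of -0.02. The ligand list was also drawn up with earlier results known, and nothing is read from its counts or median. Tnf, the ligand of Tnfrsf1a and Tnfrsf1b, was at 91.3, 103 and 101 CPM in Vehicle and 952, 1126 and 1025 CPM in LPS, a log2 fold change of 3.40 ± 0.10 (SE; edgeR adjusted p = 6.35e-07). Lta, which encodes lymphotoxin alpha, was at 0.94, 0.35 and 0.27 CPM in Vehicle and 15.9, 19.1 and 12.5 CPM in LPS (4.83 ± 0.36). Its 17 and 13 counts in Vehicle 2 and Vehicle 3 were near the floor. The size of its change is therefore uncertain, at 4.54 to 5.65 over the alternatives. Tnfsf14, a ligand of Ltbr, was at 2.84 ± 0.46 CPM in Vehicle and 8.66 ± 2.61 CPM in LPS (SD, n = 3; 1.59 ± 0.29). No library of one group reached the other for these genes.

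Tnfsf9, the ligand of Tnfrsf9, was at 30.0, 28.4 and 31.9 CPM in Vehicle and 40.6, 42.9 and 39.6 CPM in LPS (0.45 ± 0.10, edgeR adjusted p = 0.0166). That call was lost without Vehicle 1, Vehicle 2 or LPS 2 (adjusted p = 0.0584 to 0.0761), and 14.9% of its exon bases lie opposite Gm11110. Ltb, the other subunit of the lymphotoxin ligand of Ltbr, was near the floor in Vehicle, at 0.18, 0.25 and 0.87 CPM, and at 2.08, 1.69 and 1.07 CPM in LPS. Its call (1.97 ± 0.56, edgeR adjusted p = 0.0361) was lost under limma voom (adjusted p = 0.0533), under edgeR's earlier test (0.0819), with the replicate block (0.0652) and without LPS 1, LPS 2, Vehicle 1 or Vehicle 2 (0.0960 to 0.132). Tnfsf12, the ligand of Tnfrsf12a, was not called (0.06 ± 0.32), and LPS 3, the library in which Tnfrsf12a was lowest among LPS, held 8.08 CPM against 19.4 and 20.6 CPM in the others. Of its exon bases 48.3% are shared with Tnfsfm13, so its value is uncertain. Tnfsf10, which encodes TRAIL, was not called (-0.72 ± 0.55). Tnfsf11 and Fasl, the ligands of Tnfrsf11a and Fas, were at 0 in every library.

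Ratios of ligand to receptor per length were taken within each library. Tnf over Tnfrsf1a was 1.75 ± 0.26 in Vehicle and 16.9 ± 1.33 in LPS, and Tnf over Tnfrsf1b 1.95 ± 0.24 and 3.54 ± 0.25 (SD, n = 3). The libraries of the groups did not overlap in either ratio. Tnfsf9 over Tnfrsf9 was 1.11, 0.96 and 1.16 in Vehicle and 0.55, 0.56 and 0.54 in LPS, so the receptor exceeded its ligand in each LPS library. In Vehicle the pair was too close to be ordered, as lengths are those of the longest annotated transcripts.

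**Figure D5:**
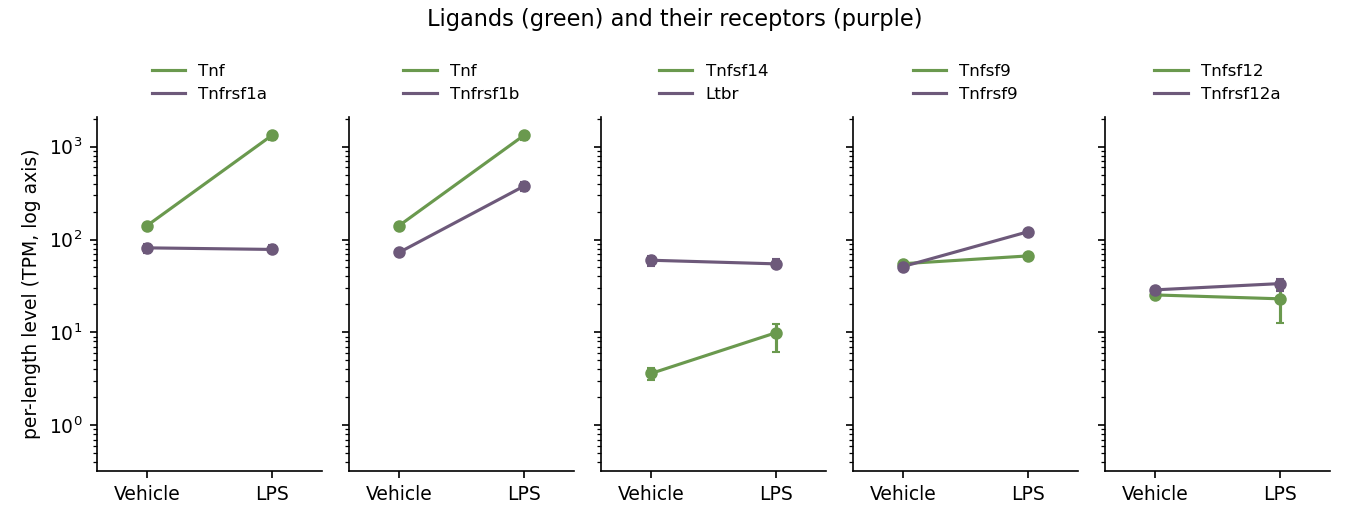
Mean per-length level (TPM, log axis) of 5 pairs of ligand (green) and receptor (purple) in Vehicle and LPS, with bars from the lowest to the highest of 3 libraries. Tnf stands at 141 TPM in Vehicle and 1322 TPM in LPS beside Tnfrsf1a at 81.4 and 78.3 TPM, and Tnfsf9 and Tnfrsf9 stand at 54.9 and 51.2 TPM in Vehicle and 66.6 and 121 TPM in LPS.

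Of 14 proximal signalling genes, all tested, 2 were called higher and 0 lower (14.3% called, against 23.6% of all tested genes; median log2 fold change 0.12). Traf1, an adaptor of Tnfrsf1b and Tnfrsf9, was at 4.25 ± 0.07 CPM in Vehicle and 103 ± 16.7 CPM in LPS (SD, n = 3), a log2 fold change of 4.60 ± 0.16 (SE; edgeR adjusted p = 1.41e-06). Birc3, a ubiquitin ligase held by TRAF adaptors, was at 22.3 ± 3.68 and 47.8 ± 7.63 CPM (1.10 ± 0.17). Of 6 genes of receptor and ligand shedding 4 were tested, with 1 called higher, 2 lower and 1 not called (median log2 fold change -0.19). Among all tested genes 12.7% were called higher and 10.9% lower, and the median was -0.02. Both the signalling and the shedding list were drawn up with earlier results known, so nothing is read from their counts. Rhbdf2, a partner of the TNF-cleaving protease ADAM17, was called higher (1.05 ± 0.12), and Adam10 (-0.83 ± 0.11) and Adam17 (-0.40 ± 0.12, edgeR adjusted p = 0.0416) lower. The Adam17 call was lost with the replicate block (adjusted p = 0.0725) and without LPS 1, LPS 2, Vehicle 1, Vehicle 2 or Vehicle 3 (0.0585 to 0.159).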

How the data were processed

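RNA of BV2 cells was sequenced in 3 Vehicle and 3 LPS libraries after poly(A) selection. The authors deposited estimated counts per gene, which were all whole, so rounding them had no effect, and 0 columns were left unmapped. The submitters' processing notes name the tools HISAT2, DESeq2, StringTie 1.3.1 and Bowtie2 2.2.8, without a role or order. Build, annotation and strand setting: not given in the sources used here. Symbols (55141 of 55401 genes) and lengths came from GENCODE by Ensembl identifier. A gene entered the fit if it passed filterByExpr with a minimum count of 10 and a minimum total of 15. Libraries were scaled by TMM, and LPS was compared with Vehicle by the robust, two-sided quasi-likelihood F-test of edgeR 4.0.16 (R 4.3.3). Calls were made at an adjusted p (Benjamini-Hochberg, 16371 genes) under 0.05. The SE is the size of the log2 fold change over the square root of F. Limits for a count of 0 cover counting error only, because reads without molecular identifiers can be copies of one molecule. The fit was tested on simulated data. The members and gene lists were chosen with earlier results of these data known. All members, tested other receptors and ligands could be named, and up to 4 called genes of each other list, those with the largest changes. Receptors at 0, the genes beside the members, single cell type markers, and Cflar, Birc2 and Traf2 were named after their values were seen. One marker result is not reported here. Alternatives were DESeq2 1.42.0 (its size factors and its Wald test), total counts, upper quartile, no filter, a minimum count of 50, voom in limma 3.58.1, a replicate block, division by the step, leaving out each library and, added after seeing the data, edgeR's test as before version 4. Figures used matplotlib 3.10.9 in Python 3.11.15.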

Additional observations from a re-analysis of the deposited data

How the results depend on the processing

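Over 16 alternatives, 4 to 6 members and 2 to 4 other receptors were called, against 5 and 4. With each library left out in turn, the range was 4 to 6 for the members and 2 to 4 for the others, with 2 reached without Vehicle 2. Of all tested genes 13.7% were called without Vehicle 2 and 26.4% without LPS 3, where 6 members were called, against 23.6% with all libraries. Tnfrsf1b, Tnfrsf9, Tnfrsf11a and Tnfrsf26 kept their direction and call throughout, the highest adjusted p being 0.0472 for Tnfrsf26. The sign of Tnfrsf21 turned, to -0.012 with the size factors of DESeq2, -0.090 with total counts, -0.031 with upper quartile, -0.00050 without a filter, -0.017 with a minimum count of 50, -0.016 with the DESeq2 Wald test, -0.017 with voom, -0.0035 with edgeR's earlier test and -0.0068 with division by the step, and leaving out each library gave -0.193 to 0.118. Ltbr turned to -0.052 with total counts and ran from -0.067 to 0.105 with each library left out. None of these was called, and the cause was not tested. Total counts moved the median log2 fold change of all genes to -0.10. Deviations of same-numbered libraries correlated at 0.073, 0.045 and 0.058, too low to pair them, though each library correlated best with its own number, which is a hint from the data only. With the replicate block 5 members and 4 other receptors were called, 3816 genes in all against 3864, and Tnfrsf21 stood at -0.015. Among members, depth limits Fas, with 34 to 233 counts, and Tnfrsf10b most.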

Other observations

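The 19 genes beside the members were looked at after their values were seen. Of these 15 were tested, 4 called higher, 1 lower and 10 not called. Among all tested genes 23.6% were called, 12.7% higher and 10.9% lower. Tnfrsf8, beside Tnfrsf1b, is given above, and the other called neighbours follow. Tnfrsf11a lies between Relch, which was called lower (log2 fold change -0.91 ± 0.19 SE, edgeR adjusted p = 0.00940), and Zcchc2, which was called higher (0.46 ± 0.12, edgeR adjusted p = 0.0248). Fas lies beside Acta2, which was called higher (1.26 ± 0.32, edgeR adjusted p = 0.0233), and Ch25h, which was at 0 in every library. Acta2 was a low transcript, with a mean of 1.35 CPM in Vehicle and 3.22 CPM in LPS. Cars, beside Tnfrsf26 on the side away from Tnfrsf22, was called higher (0.69 ± 0.09, edgeR adjusted p = 0.00115).

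Some signalling genes gained a call when 1 LPS library was left out, and they are named here for that reason, after their values were seen. The direction of each log2 fold change was the same with and without that library. Cflar, which encodes the caspase-8 inhibitor cFLIP, was not called (0.54 ± 0.43). It was at 106, 118 and 111 CPM in Vehicle and 225, 68.3 and 195 CPM in LPS. LPS 2 thus lay below every Vehicle library, and without it Cflar was called higher (0.91 ± 0.10, edgeR adjusted p = 0.00188). Birc2 was not called (-0.48 ± 0.19), and without LPS 1 it was called lower (-0.71 ± 0.17, edgeR adjusted p = 0.0282). Traf2 was not called (0.41 ± 0.16), and without LPS 3 it was called higher (0.55 ± 0.11, edgeR adjusted p = 0.00987).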
